A study of Mus musculus with 12 samples.

Results

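The comparison is between reads of 9 mouse transcripts prepared with 2 library kits and laid over the same background, in 2 of the 12 samples of the series (10 of its replicate columns). The RNA was that of the mouse cell line D1, and ERCC control RNA was mixed into the RNA for the TruSeq libraries. In both samples the background was the same reads of an unstranded TruSeq library made from 1000 ng of total RNA. To this background the submitters added, on a computer, reads of the 9 transcripts drawn from 80M reads (M, 1e6 reads) of either a TruSeq library made from 100 ng of RNA or a NuGENv2 library made from 2 ng. Both samples also carry synthetic reads of even coverage for 2 further lists, of 15 and 13 transcripts, and each sample holds 5 paired-end replicates. The samples were chosen by their labels, so no measured value decided which columns entered. Kit and amount of RNA changed together and cannot be told apart. Each kit supplied 1 pool of added reads, the same in all 5 replicates, so n = 1 for the kit and the spread between replicates is that of the background. The labels do not say whether the replicates came from separate cultures, so that spread may be technical.

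A TruSeq library captures polyadenylated RNA on oligo-dT beads, breaks it into fragments and copies the fragments with random primers, so reads come from the whole length of a transcript. NuGEN kits for small inputs copy RNA into cDNA and amplify that cDNA before fragments are sequenced, and were made for samples in which RNA is scarce. Splicing methods compare how much coverage each exon of a gene has, so the shape of coverage along a transcript is a measured quantity in its own right. The tables give coverage over exon bins, pieces of the exons of a gene cut so that none overlaps another, and a bin that several isoforms share counts reads of all of them.

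The 9 transcripts lie in 9 gene models with 153 of the 925 bins. All coordinates are NCBIM37, the build also called mm9. Aes lies on chr10:81022239-81029107, Copa on chr1:174012660-174052461 and Cyth4 on chr15:78427477-78452449. Gmfg lies on chr7:29222466-29233252 and Myadm on chr7:3289039-3299346. These 5 genes and Elp2 are on the plus strand. On the minus strand are Fxyd5 on chr7:31817741-31827500, Saal1 on chr7:53941478-53966050 and Ppp2r3a on chr9:101007322-101154162. Bins are numbered from E001 in genomic order, so E001 is at the 5′ end of a plus-strand gene and at the 3′ end of a minus-strand gene.

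Cyth4 and Fxyd5 are shown by sequence because in both, on many added reads, the kits covered different stretches of the gene. The coding bins below were picked from those stretches after their values were seen. Each is written 5′ to 3′ on the gene's strand, with runs of at least 4 G or C in capitals. In Cyth4, E007 (chr15:78438556-78438636) lies in the stretch that gained more NuGENv2 reads, and E015 (chr15:78448806-78448882) and E017 (chr15:78449692-78449763) lie in the stretch that gained more TruSeq reads.
Cyth4 E007: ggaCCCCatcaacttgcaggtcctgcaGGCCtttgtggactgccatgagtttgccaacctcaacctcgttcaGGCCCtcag
Cyth4 E015: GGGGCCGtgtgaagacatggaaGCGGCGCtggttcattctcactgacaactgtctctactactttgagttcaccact
Cyth4 E017: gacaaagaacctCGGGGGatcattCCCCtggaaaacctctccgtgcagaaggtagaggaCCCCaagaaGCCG
In Fxyd5, E010 (chr7:31825202-31825276) and E007 (chr7:31822840-31822947) gained far more NuGENv2 reads, and E004 (chr7:31820228-31820302), farther toward the 3′ end, gained nearly the same number with both kits.
Fxyd5 E010: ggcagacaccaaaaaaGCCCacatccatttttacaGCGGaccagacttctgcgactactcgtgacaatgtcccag
Fxyd5 E007: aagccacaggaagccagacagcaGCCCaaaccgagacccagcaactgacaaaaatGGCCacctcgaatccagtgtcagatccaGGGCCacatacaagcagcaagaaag
Fxyd5 E004: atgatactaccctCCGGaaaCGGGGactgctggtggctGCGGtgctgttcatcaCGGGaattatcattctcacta
The share of G and C was 58.0%, 51.9% and 56.9% in the 3 Cyth4 bins and 50.7%, 53.7% and 52.0% in the 3 Fxyd5 bins, in the order printed.

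Reads in bins averaged 483008 ± 87710 (SD, n = 5) with TruSeq reads and 472009 ± 87710 (SD, n = 5) with NuGENv2 reads. Replicate 2 was the deepest in both samples, and median-of-ratios size factors, the median over bins of each column's reads relative to the others, ran from 0.77 to 1.65. They do not follow the totals in every replicate: replicate 3 had 555271 reads with TruSeq and a factor of 0.86, replicate 1 had 382363 and a factor of 0.94. The labels name no tissue for D1, and of the cell type markers looked up, only Sirpa and Mgl2 are among the 58 models. Both had over 6000 reads in every replicate, identical in the 2 samples, so the kind of cell cannot be checked further here.

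TruSeq added more reads than NuGENv2 to most of the 9 genes, and above all to Aes, a short Groucho-family corepressor of transcription. Fxyd5, a membrane protein that regulates the sodium-potassium pump and cell adhesion, was the exception and received more NuGENv2 reads. In reads, 115 bins differed between the 2 samples, all of them in the 9 gene models, and none of the 772 bins of the other 49 models differed. The difference was the same number of reads in all 5 replicates in each of the 925 bins. TruSeq was higher in 58 bins, by 18489 reads in all, and NuGENv2 in 57 bins, by 7490 reads, a net difference of 10999 reads. The kits thus differed about as often in each direction over bins, while the reads were unevenly divided. In the other 38 bins of the 9 models the samples were equal, and 37 of these gained no reads with depth in either kit.

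Gene totals per replicate show how much of this stands out from the background. Aes had 19453, 27259, 18119, 19143 and 17064 reads in replicates 1 to 5 with TruSeq and 10295, 18101, 8961, 9985 and 7906 with NuGENv2. The deepest NuGENv2 replicate exceeds the shallowest TruSeq replicate, so the raw totals overlap, although TruSeq is higher in each same-numbered pair. After division by these size factors Aes measured 19963 ± 2074 against 10601 ± 369 reads (SD, n = 5), which is 0.91 ± 0.08 on the log2 scale (SE; adjusted p = 4.14e-05 by limma). It was the only one of the 58 models called (1.72%). With no scaling its limma adjusted p was 0.333, and by the exact permutation test it was 0.153. Same-numbered columns share their background. A limma fit with the replicate as a block and no scaling passed all 9 kit models and none of the other 49. Adjusted p ran from 0.00159 to 0.0127 in the 9. This outcome was fixed in advance, here and for the genes below, because the difference is the same number of reads in every pair. Such a fit passed even the 7 reads of Ppp2r3a (limma adjusted p = 0.0087), so it is no evidence on the kits. With the block on scaled values all 58 passed, the 49 without a difference in reads included, so that fit does not separate them.

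Fxyd5 had 26628, 42928, 23882, 26633 and 22123 reads with TruSeq and 28823, 45123, 26077, 28828 and 24318 with NuGENv2. The scaled totals were 27565 ± 945 and 29978 ± 1507 reads (SD, n = 5), a log2 difference of -0.12 that did not pass without the block (limma adjusted p = 0.408) and passed with the block and no scaling (-0.11; 0.00655). Myadm, a membrane protein of myeloid cells, had 23355, 29133, 22434, 23504 and 22061 reads with TruSeq and 21197, 26975, 20276, 21346 and 19903 with NuGENv2. Here too the ranges overlap, and its log2 difference of 0.13 passed only with the block (adjusted p = 0.995 without it and 0.00159 with it and no scaling). Cyth4, a cytohesin that activates ARF GTPases, had 13478, 23584, 12176, 13771 and 11292 reads with TruSeq and 12345, 22451, 11043, 12638 and 10159 with NuGENv2. Its scaled totals were 14282 ± 156 and 13185 ± 302 reads (SD, n = 5), with a limma adjusted p of 0.163, and of 0.00771 with the block and no scaling.

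The remaining totals were lower, and passed only in the blocked fits. Elp2, a subunit of the Elongator complex that modifies tRNA, was 453 reads higher with TruSeq in every replicate, on totals between 3396 and 6564 reads with that kit. Copa, the alpha subunit of the COPI coat of Golgi vesicles, was 214 reads higher on totals between 4482 and 9964 reads. Saal1, a serum amyloid A-like protein, was 57 reads higher on totals between 752 and 1419. Gmfg, a regulator of actin branching in blood cells, was 14 reads higher and Ppp2r3a, a regulatory subunit of protein phosphatase 2A, was 7 reads higher. Over the 9 models the median log2 difference was 0.12, against -0.01 over all 58.

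**Figure D1:**
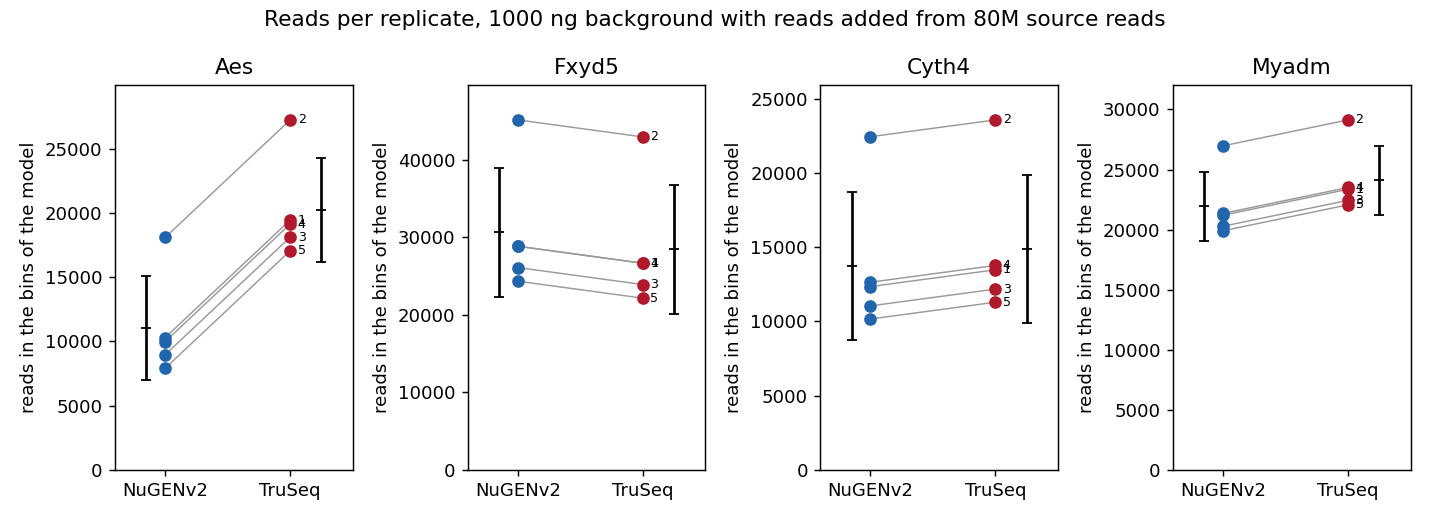
Reads in the bins of Aes, Fxyd5, Cyth4 and Myadm in the 5 replicates of each sample (numbered points), each replicate joined to the same-numbered replicate of the other kit, with the mean and SD (n = 5) as bars. The lines rise steeply in Aes, fall in Fxyd5 and are parallel in every panel, and replicate 2 is the highest throughout.

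At the level of single bins the kits differed more often. Of 923 bins tested, 47 passed limma at an adjusted p of 0.05 (5.09%). TruSeq was higher in 32 of them (3.47%) and NuGENv2 in 15 (1.63%), and all lay in the 9 models. The median log2 difference was -0.01 over the 153 bins of these models and also over all bins, most of which hold the same reads in both samples. Only 2 of the 47 calls were made with no scaling, Aes E010 and Copa E008. The exact permutation test called none (74 bins at an unadjusted p under 0.05), and the smallest p it can give with 5 against 5 is 0.00794. With the replicate block and no scaling limma called 115 bins, which are those that differ in reads, and with the block on scaled values 895, of which 744 lie outside the 9 models.

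The background can be removed by taking the reads that each kit gained between 20M and 80M source reads in the same background. Over the 9 models the gain was 30859 reads with TruSeq and 23442 with NuGENv2, a ratio of 1.32 (95% Clopper-Pearson interval 1.29 to 1.34, as for all intervals here, which cover counting error only). Read pairs in PCR-amplified libraries are not independent molecules, and a read over 2 bins appears to count in both. True intervals are therefore wider, and sums over bins can hold the same read more than once. Aes gained 8000 reads with TruSeq and 1046 with NuGENv2, a ratio of 7.65 (7.17 to 8.17). Fxyd5 gained 6304 and 9216, 1.46-fold (1.42 to 1.51) more with NuGENv2. These were the highest and the lowest ratio of the 9 from 20M to 80M. From 20M to 40M alone Fxyd5 gained more with TruSeq, a ratio of 1.85.

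The other 7 genes lay between them over this interval. The ratio was 1.73 (1.45 to 2.07) in Copa, 1.70 (1.53 to 1.89) in Elp2, 1.57 (1.46 to 1.68) in Cyth4 and 1.19 (1.16 to 1.22) in Myadm. In Saal1 it was 1.27 (1.02 to 1.60), on 182 and 143 reads. In Ppp2r3a the gains were 57 and 45 reads and the interval of 0.842 to 1.92 includes equality, so a difference was not detectable at this depth. Gmfg gained 19 reads with TruSeq and 5 with NuGENv2, a ratio of 3.80 whose interval of 1.37 to 13 is the widest of the 9. The kit ratio therefore was not one number for all genes, and differed between Aes and Fxyd5 by more than counting error.

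**Figure D2:**
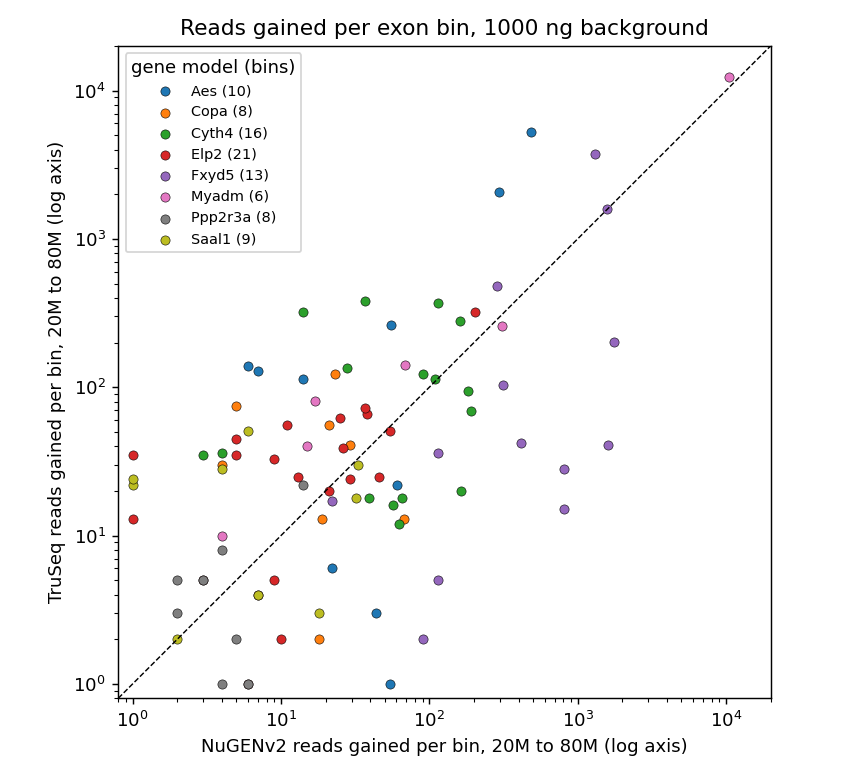
Reads gained between 20M and 80M source reads by each bin, NuGENv2 on the horizontal and TruSeq on the vertical log axis, for the 91 bins with a gain in both kits, coloured by gene. Of these, 50 lie above the dashed line of equal gain, 40 below and 1 on it, and 10 of the 13 Fxyd5 bins lie below it.

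Within a gene the kits placed their reads differently. Bin usage, the bins of a gene compared with each other by limma diffSplice, differed in 8 of the 58 models (13.8%), which were all of the 9 except Ppp2r3a (adjusted p = 0.99998). Adjusted p-values ran from 2.66e-27 in Cyth4 to 0.0214 in Myadm, but only 3 models passed with no scaling. The diffSplice fit counts the bins of a gene as separate values, although all of them come from the same columns. The size of these p-values therefore overstates the evidence. With the block 47 models passed on scaled values, 38 of them outside the 9, and with the block and no scaling the 9 kit models passed. The p-values compare a fixed pool of reads with the background spread, and do not measure how far another library of the same kit would differ. Listed transcripts were the same in both samples, so any change in usage here arose without a change of isoform list.

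**Figure D3:**
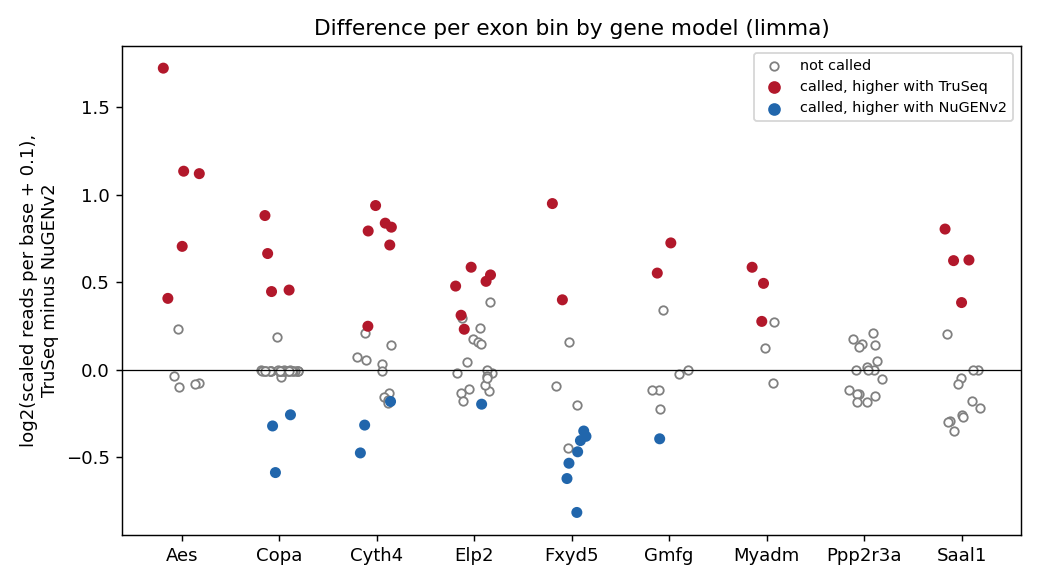
The difference of log2(scaled reads per base + 0.1), TruSeq minus NuGENv2, of each bin of the 9 gene models, 1 point per bin, coloured where limma passed. Aes, Myadm and Saal1 have called bins above 0 and none below, while Fxyd5, Cyth4, Copa, Elp2 and Gmfg have called bins on both sides. Ppp2r3a has no called bin.

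Fxyd5 changed kit along its length. In E001 to E004, at its 3′ end, TruSeq gained 5831 reads and NuGENv2 3196. In E005 to E013, toward the 5′ end, TruSeq gained 473 and NuGENv2 6020, a ratio of 0.0786 (0.0714 to 0.0863). The first stretch thus held 92.5% of the TruSeq gain and 34.7% of the NuGENv2 gain (the stretches were chosen after their values were seen). E004, printed above, is where the kits met: it gained 1594 reads with TruSeq and 1574 with NuGENv2, or 21.5 and 21.3 reads per base.

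Bin E002 of Fxyd5 had 6940, 8807, 6648, 6906 and 6403 reads with TruSeq and 3524, 5391, 3232, 3490 and 2987 with NuGENv2, with no overlap. It was the largest TruSeq excess in the gene, 3416 reads (log2 difference 0.95 ± 0.11, SE; limma adjusted p = 0.000585). Bin E007, printed above, had 3160, 5810, 2715, 3176 and 2486 reads with TruSeq and 4878, 7528, 4433, 4894 and 4204 with NuGENv2. It was the largest NuGENv2 excess (TruSeq minus NuGENv2 = -1718 reads), and it passed at a log2 difference of -0.62 (adjusted p = 0.00015), although its ranges overlap through replicate 2. Its gain was 8.68-fold (7.50 to 10.1) higher with NuGENv2, 1745 against 201 reads. The difference was wider still in E009, where NuGENv2 gained 806 reads and TruSeq 15, and in E010, where they gained 814 and 28.

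Cyth4 showed the same order of kits along the transcript, from its 5′ end. In E001 to E008 TruSeq gained 369 reads and NuGENv2 848, a ratio of 0.435 (0.384 to 0.492). In E009 to E018 they gained 1698 and 471, a ratio of 3.61 (3.25 to 4.0), again with stretches chosen after their values were seen. The 3′ stretch thus held 82.1% of the TruSeq gain and 35.7% of the NuGENv2 gain. The last bin, E019, had the most reads of the gene, 4077, 7554, 3323, 4111 and 3135 reads, and these were identical in both samples because neither kit added reads there.

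Bin E015 of Cyth4, printed above, had 1027, 1506, 978, 1031 and 898 reads with TruSeq and 561, 1040, 512, 565 and 432 with NuGENv2. The deepest NuGENv2 replicate overlaps the TruSeq range, and the other 4 lie below it. Its gain was 10.3-fold (7.36 to 14.9) higher with TruSeq, and the log2 difference of scaled signal was 0.84 ± 0.07 (SE; limma adjusted p = 0.000118). In E017, which had the largest ratio in the gene, TruSeq gained 321 reads and NuGENv2 14, a ratio of 22.9 (13.5 to 42.4). E007 went the other way, with 423, 870, 404, 435 and 355 reads with TruSeq and 601, 1048, 582, 613 and 533 with NuGENv2 (log2 difference -0.48; adjusted p = 0.000614). The difference between kits thus changed direction within the coding sequence of Cyth4.

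In Aes the TruSeq excess lay at both ends, and NuGENv2 gained more in E004 to E007. Its last bins, E009 and E010, held 91.6% of the TruSeq gain and 74.9% of the NuGENv2 gain, and the ratio there was 9.35 (8.69 to 10.1). Bin E010 had 8875, 10721, 8639, 8877 and 8445 reads with TruSeq and 2552, 4398, 2316, 2554 and 2122 with NuGENv2. The 2 ranges are far apart, and the log2 difference was 1.72 ± 0.12 (SE; limma adjusted p = 0.000118, and 0.00392 with no scaling). E010 made up 45.7% ± 3.85 of the reads of the gene with TruSeq and 25.5% ± 0.984 with NuGENv2 (SD, n = 5). At the 5′ end E002, which holds the start of the coding sequence and has 80.6% G and C, gained 140 reads with TruSeq and 6 with NuGENv2. The largest NuGENv2 excess was in coding bin E006, 63 reads on 713 to 1791, and it did not pass (adjusted p = 0.999).

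**Figure D4:**
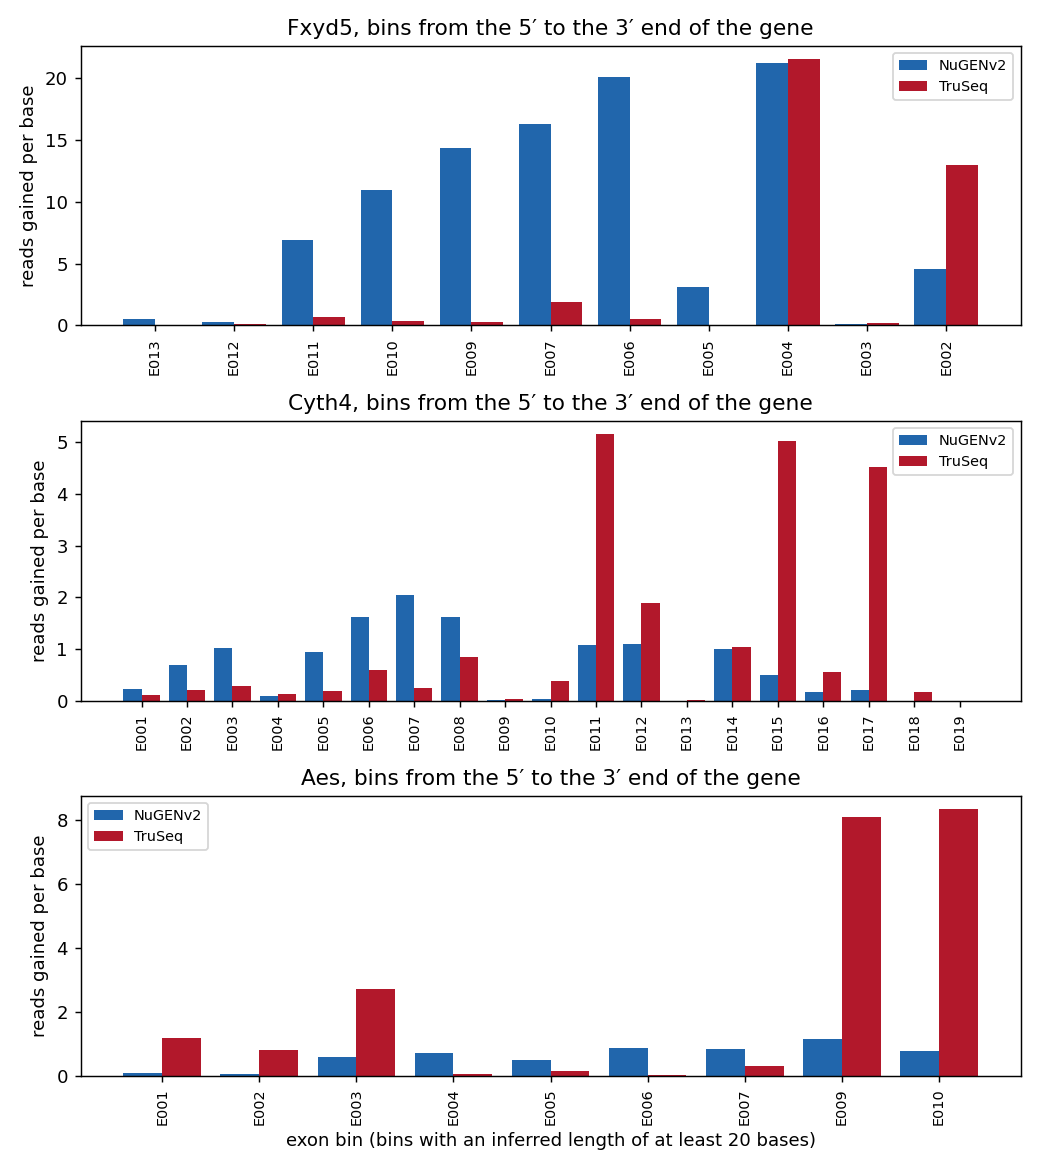
Reads gained per base between 20M and 80M source reads (bars) by bin in order from the 5′ to the 3′ end, for Fxyd5, Cyth4 and Aes, leaving out bins under 20 bases. In Fxyd5 and Cyth4 the NuGENv2 bars are higher in most 5′ bins and the TruSeq bars in most 3′ bins, and in Aes E009 and E010 TruSeq is far higher.

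Myadm was nearly alike in shape. Its last bin, E007, held 95.9% of the TruSeq gain and 96.2% of the NuGENv2 gain. It had 21965, 27025, 21058, 21968 and 20724 reads with TruSeq and 19996, 25056, 19089, 19999 and 18755 with NuGENv2, which overlap and did not pass (limma adjusted p = 0.999). Bin E005, with 142 reads gained with TruSeq and 69 with NuGENv2, passed (log2 difference 0.49; adjusted p = 0.0326). The untranslated bin E006 was the only bin of Myadm with more NuGENv2 reads, by 38.

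Copa received added reads only in its first 9 of 39 bins. Within it, coding bin E007 had 274, 374, 264, 272 and 241 reads with TruSeq and 142, 242, 132, 140 and 109 with NuGENv2. These ranges overlap by 1 read, and the gain ratio was 5.35 (3.41 to 8.75). The next bin, E008, is untranslated and longer, and it had 37, 43, 41, 38 and 28 reads with TruSeq and 115, 121, 119, 116 and 106 with NuGENv2. Its ranges do not overlap, it passed at a log2 difference of -0.59 (limma adjusted p = 0.0016), and it passed with no scaling as well (0.042). Neighbouring bins of the same gene thus differed between kits in opposite directions.

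In Elp2 the largest TruSeq excess was in its last bin, E024, with 682, 949, 628, 676 and 602 reads with TruSeq and 545, 812, 491, 539 and 465 with NuGENv2, and it did not pass (limma adjusted p = 0.111). The bin before it, E023, was 29 reads higher with NuGENv2 and passed (log2 difference -0.20; adjusted p = 0.0271). Bin E020 was 62 reads higher with TruSeq and passed (0.31; 0.0116). In all, 6 bins of Elp2 were called higher with TruSeq and 1 with NuGENv2. TruSeq was higher in 13 bins and NuGENv2 in 10, but the excess was not even along the gene. The 12 bins from E012 to E023, a stretch chosen after its values were seen, held 57 of the net 453 reads. There TruSeq gained 371 reads and NuGENv2 302, a ratio of 1.23 (1.05 to 1.43), against 1.70 over the whole gene. Of the called TruSeq bins, E001, E006, E008 and E010 lie 5′ of this stretch, and E014 and E020 lie within it.

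The 3 genes with the fewest reads were not alike in calls, against 5.09% called over all bins tested. Saal1 had 4 of 16 bins called, all higher with TruSeq. Gmfg, with 9 bins, had 2 called higher with TruSeq and 1 with NuGENv2, and Ppp2r3a had 0 of 17. In Saal1 E004 had 117, 177, 119, 122 and 99 reads with TruSeq and 57, 117, 59, 62 and 39 with NuGENv2, and it passed (log2 difference 0.80; limma adjusted p = 0.000304). In E005 to E015 of the same gene TruSeq gained 57 reads and NuGENv2 131, which is 31.3% and 91.6% of the gain of each kit, a split as uneven as in Fxyd5 on far fewer reads. In Gmfg the TruSeq gain of 19 reads fell in E001 to E003 and the NuGENv2 gain of 5 reads in E004 to E009, so no bin gained from both. Gmfg E002 had 10, 12, 12, 10 and 8 reads with TruSeq and 2, 4, 4, 2 and 0 with NuGENv2. It passed on these few reads (log2 difference 0.72; limma adjusted p = 0.00227). No bin of Ppp2r3a passed, and its largest excesses were 7 reads with TruSeq in E014 and 6 with NuGENv2 in E013.

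The ranges of the 5 TruSeq and 5 NuGENv2 replicates did not overlap in 13 bins, 9 higher with TruSeq and 4 with NuGENv2, 1.41% of the 925 bins and all in the 9 models. For comparison, limma called 5.09% of bins tested. Among the 35 bins of 6 genes with at least 100 reads gained over both kits, the log2 ratio of gains ran from -5.75 in Fxyd5 E009 to 4.54 in Aes E002, with a median of 0.67. TruSeq was higher in 22 of these bins and NuGENv2 in 13. The ratio was correlated with position from the 5′ to the 3′ end of the bins with added reads (r = 0.46, rho = 0.40, 35 bins). It was hardly correlated with length (r = 0.09, rho = 0.16). Against G and C content, for the 19 bins placed on the genome, r was 0.29 and rho 0.01. These are descriptions across bins that share genes and the same pool of each kit.

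Position was measured from 0 at the 5′ end to 1 at the 3′ end of the bins with added reads, laid end to end. The scale thus leaves out Cyth4 E019 and all but the first 9 bins of Copa, and is not that of the whole gene. The mean position of gained reads in Fxyd5 was 0.707 with TruSeq and 0.353 with NuGENv2. In Cyth4 it was 0.697 and 0.411, and in Myadm 0.597 and 0.599. Elp2 went the other way, at 0.659 and 0.758. TruSeq reads lay nearer the 3′ end in 6 of the 9 genes, by a mean of 0.0651 over genes. The SD over the 9 genes was 0.203, and the genes went in both directions.

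The size of the kit difference grew with depth in most genes. A constant kit ratio gives such growth by design, because more source reads add more reads of both kits. In Aes TruSeq was higher by 2204, 4557 and 9158 reads at 20M, 40M and 80M, and in Myadm by 138, 821 and 2158. In Elp2 the difference was 60, 194 and 453 reads. Fxyd5 changed sign: TruSeq was higher by 717 reads at 20M and 1696 at 40M, and the difference was -2195 at 80M. With reads drawn in proportion to depth, the gain from 40M to 80M would be 2.0 times the gain from 20M to 40M. TruSeq Fxyd5 reads gave 1.97, while NuGENv2 Fxyd5 reads gave 7.04, 1146 and then 8070 reads. NuGENv2 Cyth4 reads gave 4.09 against 2.12 with TruSeq, and NuGENv2 Aes reads gave 2.06. The excess growth was thus in the NuGENv2 reads of 2 of the genes with many reads, and what it follows from was not tested.

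**Figure D5:**
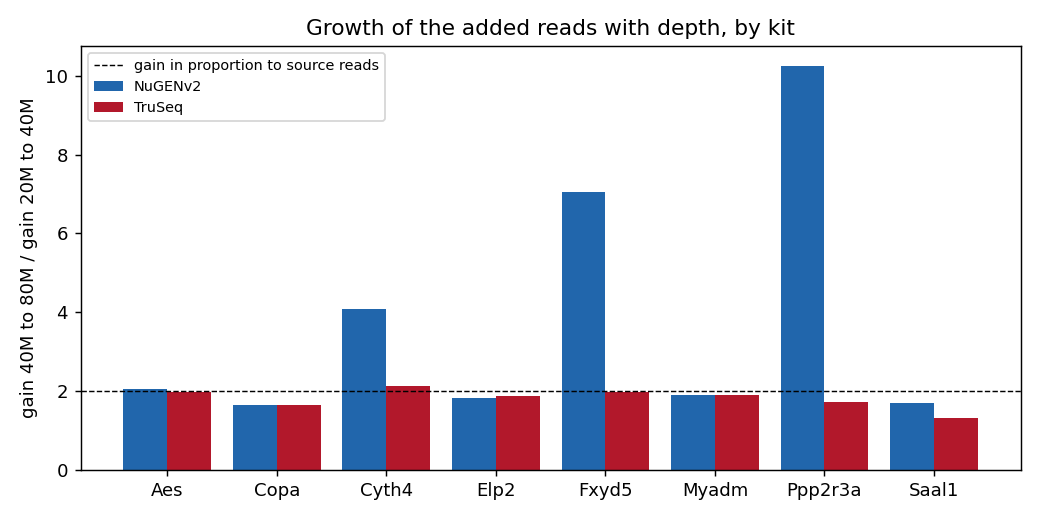
Gain from 40M to 80M source reads divided by the gain from 20M to 40M, per gene and kit (bars), with a dashed line at 2.0 for proportional growth. Fxyd5 (7.04) and Cyth4 (4.09) stand above the line with NuGENv2, the 10.25 of Ppp2r3a rests on 4 reads gained first and 41 later, and Gmfg is left out because NuGENv2 gained nothing from 20M to 40M.

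In the background made from 100 ng the same kits and depth were used over 4 replicates with whole reads, with other lists of transcripts. TruSeq minus NuGENv2 was 0 reads in Aes, Copa, Gmfg, Myadm and Saal1 there. It was 3290 in Cyth4, 222 in Elp2, -5382 in Fxyd5 and -55 in Ppp2r3a, against 1133, 453, -2195 and 7 in the 1000 ng background. The kit-read transcripts of Elp2, Fxyd5 and Ppp2r3a in that background are other isoforms of the same gene. Aes, Copa, Gmfg and Saal1 are not on its kit-read list. Cyth4 is not on it either, although 11 of its bins differed there. The kit-read transcript of Myadm is the same in both backgrounds, yet no bin of Myadm differed there, against 2158 reads here. What Cyth4 and Myadm follow from was not tested. The direction of the kit difference was therefore the same in 3 of the 4 genes that differed in both backgrounds. Of the bins that differed there, some had the identical difference in reads here. These were 15 of 23 in Elp2, 9 of 16 in Ppp2r3a, 2 of 13 in Fxyd5 and 2 of 11 in Cyth4. The 2 backgrounds are thus not separate observations of the kits. Whether the differences between backgrounds exceed chance was not tested.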

How the data were processed

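The authors deposited tables of coverage signal over exon bins, with 5 columns per background; the values of the columns used here are whole reads over bin length, not divided by depth. Of 1744 rows, 818 repeated another row and were dropped, and 1 bin with values that were not finite was left out, leaving 925 bins of 58 gene models. Bin lengths are not in the tables and were inferred from the values; reads were whole for 100% of values within 0.001 reads, which follows from how lengths were found. STAR, Cuffdiff and mm9 are named, with no version, per the submitters' processing notes. How reads were counted over bins was not given in the sources used here. Aes E008 and Fxyd5 E008 have an inferred length of 2 and mean scaled signals of 389 and 395 with TruSeq. So many reads on so few bases mean that a read over 2 bins appears to count in both. Of the deposited columns, 22 lay outside these comparisons and were not used. The NuGENv2 and TruSeq columns with the same number share their background, since the difference between them was the same in all 5 pairs in 925 bins.

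Columns were scaled by median-of-ratios size factors. Bins were tested on log2(scaled signal + 0.1) and gene models on log2(summed reads + 1), 5 columns against 5, two-sided, with limma 3.58.1 in R 4.3.3, no replicate block and Benjamini-Hochberg adjustment over all bins or models. The threshold was 0.05, and on this scale differences of low bins come out smaller than they are. Bin usage was tested with diffSplice. Gain ratios carry exact Clopper-Pearson 95% intervals (scipy 1.17.1). Scripts were tested on simulated data. Bins were placed on NCBIM37 with GENCODE vM1 in order, by inferred length plus 1 base, which is the length of the matched exon part; values per base use the inferred length.

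All 9 models with kit reads are named. Within each, the named bins are those with the largest excess in each direction. Also named are those with the largest and smallest ratio of gains among bins with at least 100 reads gained. Other bins and the stretches of Fxyd5, Cyth4, Aes, Elp2 and Saal1 were chosen after their values were seen. The genes and lists were chosen with earlier results of these data known. Alternatives were no scaling, equal totals, other pseudocounts, a filter, the replicate block, an exact permutation test, other depths and leaving out each replicate.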

Additional observations from a re-analysis of the deposited data

Results flagged for a closer look

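In 28 of 35 sets of 5 values tested, 1 replicate lay apart from the other 4, with a gap to the nearest value that was a large share of the whole range. It was replicate 2, the deepest, in these sets, and the values are the same in both kits because the added reads are constant. Chance flags about 1 in 20 such sets, and the sets share the same libraries. The gap as a share of the range was 0.766 for the total of Aes, 0.743 for Copa, 0.798 for Cyth4, 0.787 for Elp2, 0.783 for Fxyd5, 0.796 for Myadm, 0.719 for Ppp2r3a and 0.718 for Saal1. For bins of Aes it was 0.713 in E002, 0.785 in E003, 0.743 in E006 and 0.810 in E010, and for Copa E007 0.752. For Cyth4 it was 0.845 in E007, 0.781 in E015 and 0.771 in E017. For Elp2 it was 0.759 in E015, 0.765 in E020, 0.815 in E023 and 0.769 in E024. For Fxyd5 it was 0.777 in E002, 0.792 in E007 and 0.782 in E009. For Myadm it was 0.771 in E005, 0.751 in E006 and 0.803 in E007. For Gmfg E008 it was 0.714 and for Saal1 E008 0.765.

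The kit difference of Fxyd5 was 717 reads at 20M and 1696 at 40M, higher with TruSeq in every replicate, and -2195 at 80M, higher with NuGENv2 in every replicate. For Ppp2r3a it was -5 at 20M and 7 at 80M over the background from 1000 ng, and -55 at 80M over that from 100 ng. These changes of direction were not tested.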

How the results depend on the processing

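The read difference of 10999 is the same in each replicate, so leaving out a replicate cannot change it. Against 47 bins called, no scaling gave 2 and columns set to equal totals 18, and the exact permutation test called 0 (74 unadjusted). Leaving out 1 replicate gave 35 to 44. With the replicate block 895 bins were called, 744 of them in models with no difference in reads, and with the replicate block and no scaling 115, the bins with a difference. Size factors of paired columns differ slightly, so bins with equal reads differ by a small amount after scaling, and the block leaves them little residual spread. For gene models, where 1 was called, no scaling gave 0 and the exact permutation test 0 (5 unadjusted), the replicate block 58, the replicate block with no scaling 9, and leaving out 1 replicate 1 to 1. For bin usage, where 8 models were called, no scaling gave 3, the replicate block 47, and leaving out 1 replicate 7 to 8. The gain ratio over the 9 models was 1.32 from 20M to 80M, 1.80 from 20M to 40M and 1.16 from 40M to 80M. In Fxyd5 it was 1.85 from 20M to 40M, the reverse of 0.684, and 0.518 from 40M to 80M. The cause was not tested. Genes with few added reads, such as Gmfg and Ppp2r3a, are limited by depth.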
